A study of Mus musculus with 6 samples.

Results

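A set of 10 transcription factors of the mesenchyme that surrounds the developing ear were examined in bulk RNA sequencing of mouse inner ear. They were the T-box factors Tbx1, Tbx2, Tbx3, Tbx15 and Tbx18, the paired-related homeobox factors Prrx1 and Prrx2, and the forkhead factors Foxc1, Foxc2 and Foxd1. Each was found by its symbol, so the set was 10 of 55401 genes in the deposited count table, and all 10 passed the filter on low counts that left 19687 genes for testing. The wild-type group (WT, n = 3 libraries) was compared with the Pou3f4 mutant group (KO, n = 3 libraries), written as hemizygous (Pou3f4y/-) in the labels. Pou3f4 is an X-linked POU-domain factor of the same mesenchyme. The labels name the material as inner ear with all its cells and give no strain, age, sex or dissection, and they do not say what the mutant allele lacks. They also do not say whether libraries came from separate animals, so p-values measure only the spread between these samples.

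T-box, paired-related homeobox and forkhead proteins bind DNA through the domains that give the families their names, and they switch target genes on or off during the patterning of mesenchyme. Around the ear this mesenchyme forms the bony capsule, the connective tissue of the inner ear spaces and the fibrocytes of the spiral ligament. Tbx1 is needed for growth of the cochlea, and Tbx18 is needed for the fibrocytes to mature. Tbx2 and Tbx3 act mainly as repressors, and Tbx2 also sets the identity of inner hair cells. Prrx1 and Prrx2 act together in craniofacial and limb mesenchyme, and mice lacking both have ear defects. Foxc1 acts in skull and marrow stroma, Foxc2 in lymphatic vessels and their valves, and Foxd1 in stroma of the kidney.

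None of the 10 factors passed the test between the genotypes across all genes. With edgeR's quasi-likelihood test and Benjamini-Hochberg adjustment over all genes, 0 of 10 had an adjusted p under 0.05, against 0.396% of all genes tested. At an unadjusted p under 0.05 there were 2 (Tbx1, lower in KO, and Tbx18, higher), against 19.6% of all genes (8.71% higher and 10.9% lower). DESeq2 called 1, Tbx1, against 8.14% of all genes. The fitted changes were below 0 for 7 of the 10, with a median log2 fold change of −0.17, and below 0 for 51% of all genes tested, with a median of −0.0070. For Tbx18 and Foxc2 every KO library lay above every WT library (2 of 10, against 15% of all genes), and for Tbx1 every KO library lay below (1 of 10, against 12.7%).

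WT replicate 1 stood apart from the other libraries and decided several of the values below. The 5 marker genes of skin and external ear epithelium (Krt5, Krt14, Krt1, Krt10 and Lor) summed to 780 CPM there (counts scaled to a library total of 1000000). They summed to 5.36 and 9.80 CPM in WT replicates 2 and 3 and to 4.57 to 6.37 CPM in KO, and Krt14, a keratin of basal skin cells, had no count in WT replicate 2 and KO replicates 1 and 2. All 10 skeletal muscle markers were detected, and they summed to 6118, 136.8 and 10340 CPM in WT replicates 1 to 3 and to 20.3, 807 and 33.9 CPM in KO. The 8 markers of smooth muscle and pericytes summed to 1159 CPM in WT replicate 1, against 621.5 and 670.3 CPM in the other WT libraries and 536.0 to 554.4 CPM in KO. Genes listed as markers of otic mesenchyme and fibrocytes were present in every library. They were Coch, Otor, Otos, Car3, Emilin2, Slc26a4, Slc12a2, Gjb2, Gjb6 and Pou3f4. Whether other cells of the ear also express them was not tested. The sum of these 10 genes was 1808, 3549 and 3293 CPM across WT and 1403 to 1471 CPM across KO. Sums of other cell type markers also differed without overlap. Those of 8 chondrocyte markers (9495 to 10290 CPM in WT libraries, 5859 to 6649 in KO) and 7 Schwann cell markers (4277 to 7825 and 2987 to 3412) were lower in KO. Those of 9 osteoblast and osteocyte markers (11270 to 15310 and 17530 to 18800) and 4 macrophage markers (302 to 419 and 557 to 588) were higher. So were those of 5 marrow stroma markers (662.4 to 978.6 and 1078 to 1208) and 4 markers of middle ear ciliated epithelium (17.66 to 20.8 and 20.98 to 22.66). Not every gene went with its sum. Fitted changes were below 0 for 7 of 8 chondrocyte, 2 of 9 osteoblast and osteocyte and 1 of 4 macrophage markers. They were below 0 for 1 of 5 marrow stroma and 2 of 4 ciliated epithelium markers. The macrophage marker was C1qa, at 34.7 to 35.5 CPM in WT and 32.2 to 32.9 CPM in KO. The part of cell composition in the levels of the 10 factors was not tested. Pou3f4 itself followed the labels, at 58.2 to 113 CPM across WT and 1.22 to 1.96 CPM across KO. Total counts ranged from 18409409 to 23323953 per library. Xist was present in 2 libraries of each genotype and Y-linked reads in the remaining 1, so both genotypes mixed sexes in the same proportion, and 2 KO libraries went against the hemizygous label. In bulk tissue, fewer cells of a type and less RNA per cell cannot be told apart, and this holds for every level given here.

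The stretch of DNA just before the transcription start is shown for the factors whose values the account turns on. Promoter windows were taken from RefSeq (GRCm38.p6, the assembly also called mm10), where 6 of the 10 factors had an entry. Each sequence holds the 250 bases before an annotated start, 5′ to 3′ on the strand of the gene. Capitals mark a homeodomain core motif, and the other letters are in lower case. Tbx1 and Tbx18 are shown because they had the smallest p-values, in opposite directions, and of the 2 windows of Tbx1 the one at the start of the gene is given. Prrx1 and Prrx2 are shown because their levels moved together across libraries. Both were highest in WT replicate 1, as Tbx1, Tbx3 and Tbx15 also were.
Tbx1, chr16:18590672-18590921, minus strand: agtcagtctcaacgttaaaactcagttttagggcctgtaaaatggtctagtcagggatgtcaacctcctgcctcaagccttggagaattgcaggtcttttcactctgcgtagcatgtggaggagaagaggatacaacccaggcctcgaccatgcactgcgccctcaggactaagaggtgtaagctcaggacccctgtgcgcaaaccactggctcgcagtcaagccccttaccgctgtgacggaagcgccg
Tbx18, chr9:87731261-87731510, minus strand: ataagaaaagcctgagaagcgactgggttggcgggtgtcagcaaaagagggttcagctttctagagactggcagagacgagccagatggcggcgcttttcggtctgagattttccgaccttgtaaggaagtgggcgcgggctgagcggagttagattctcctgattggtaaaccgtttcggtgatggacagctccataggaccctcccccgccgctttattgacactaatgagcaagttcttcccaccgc
Prrx1, chr1:163313651-163313900, minus strand: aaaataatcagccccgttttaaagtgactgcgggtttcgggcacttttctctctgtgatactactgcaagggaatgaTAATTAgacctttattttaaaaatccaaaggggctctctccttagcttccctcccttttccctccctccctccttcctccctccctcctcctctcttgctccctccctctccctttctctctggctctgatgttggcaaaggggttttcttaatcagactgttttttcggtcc
Prrx2, chr2:30845117-30845366, plus strand: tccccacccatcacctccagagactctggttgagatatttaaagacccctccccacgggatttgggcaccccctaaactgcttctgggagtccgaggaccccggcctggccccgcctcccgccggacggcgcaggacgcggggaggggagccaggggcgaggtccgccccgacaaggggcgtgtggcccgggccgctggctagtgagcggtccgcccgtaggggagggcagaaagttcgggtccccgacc
The motifs searched on both strands were the octamer ATGCAAAT, which POU factors bind, the T-box motif GGTGTGA, the forkhead motif GTAAACA and the homeodomain core TAATTA. Only the homeodomain core of Prrx1, starting 173 bases before the start, was found among the 7 windows of the 6 factors. In all 32851 windows of the same length these motifs occurred in 1.60%, 3.33%, 3.17% and 4.84%. The windows of Prrx1 and Prrx2 differ in composition. That of Prrx1 held 4 CpG dinucleotides and 47.6% G and C, while that of Prrx2 held 21 CpG and 70.0% G and C. The Tbx18 window held 15 CpG and that of Tbx1 held 10, and the median of all windows was 6. The RefSeq starts of Prrx1 and Prrx2 used here lie inside the genes as the count table places them, which begin further upstream.

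Of the T-box factors, Tbx1 had the largest fitted change. Tbx1 (ENSMUSG00000009097, mm10 chromosome 16, 18580979 to 18590671, minus strand) stood at 24.4, 15.0 and 15.2 CPM in WT replicates 1 to 3 and at 11.5, 11.1 and 10.1 CPM in KO replicates 1 to 3. The groups did not overlap, and WT replicate 1 was the highest library. Its log2 fold change, KO over WT, was −0.74 (SE 0.21, 95% interval −1.25 to −0.23, adjusted p = 0.159, edgeR). The value moved most without WT replicate 1, to −0.48, where the adjusted p was 0.0516. DESeq2, with a change of −0.75, gave an adjusted p of 0.0295. None of the 10 tested genes that lie within 200 kb of Tbx1 was called.

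Tbx18 (ENSMUSG00000032419, chromosome 9, 87702800 to 87731260, minus strand) had values in the other direction. It stood at 62.3, 93.2 and 77.2 CPM in WT and at 105, 96.6 and 105 CPM in KO. Every KO library lay above every WT library, the gap being narrowest between WT replicate 2 and KO replicate 2. The fitted log2 difference was 0.40 (SE 0.15, 95% interval 0.047 to 0.74, adjusted p = 0.21, edgeR). It was 0.25 without WT replicate 1, the lowest of the 6 libraries, and 0.55 without WT replicate 2.

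The promoter window of Tbx18 printed above lies within D030062O11Rik, a single-exon model of unknown function on the opposite strand (chromosome 9, 87729285 to 87732090). That model overlaps 20.6% of the exons of Tbx18. It stood at 4.74, 4.53 and 6.39 CPM in WT and at 7.82, 6.78 and 9.99 CPM in KO, again with no overlap between the groups. Its log2 fold change was 0.65 (SE 0.22, adjusted p = 0.188, edgeR). Its counts came to 4.86% to 9.55% of those of Tbx18. Whether reads were counted by strand is not stated. If reads of the 970 shared exon bases were counted for both genes, the Tbx18 level is uncertain by up to that share, while some or all reads of D030062O11Rik may be those of Tbx18, so its values are not independent of Tbx18. If such reads were instead counted for neither gene, the Tbx18 level lacks them, and these counts do not bound that loss.

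Tbx15 (ENSMUSG00000027868, chromosome 3, 99240381 to 99354259, plus strand), a factor of skeletal and dermal development, had the largest coefficient of variation within WT after Prrx2. It stood at 64.1, 21.5 and 45.8 CPM in WT and at 30.5, 32.2 and 30.3 CPM in KO. WT replicates 1 and 3 lay above all KO libraries and WT replicate 2 lay below them. WT replicates 1 and 3 were also the WT libraries with the most muscle transcript. WT replicate 3 had the larger muscle sum but less Tbx15 than WT replicate 1. KO replicates 1 and 3 had smaller muscle sums but more Tbx15 than WT replicate 2. The part of muscle tissue in this value was not tested. For Tbx15 the log2 fold change was −0.50 (SE 0.35, adjusted p = 0.467, edgeR). Without WT replicate 2 it was −0.82 with an adjusted p of 0.0502, and without WT replicate 1 it was −0.13.

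Tbx2 (ENSMUSG00000000093, chromosome 11, 85832551 to 85841948, plus strand) varied least of the 10 within both genotypes. It stood at 51.8, 58.6 and 57.4 CPM in WT and at 49.9, 52.5 and 52.0 CPM in KO. WT replicate 1 fell within the KO range, and the other WT libraries lay above it. The difference on the log2 scale was −0.12 (SE 0.078, 95% interval −0.31 to 0.065, adjusted p = 0.43, edgeR), and it was −0.19 without WT replicate 1 (adjusted p = 0.0921). 2610027K06Rik, a non-coding transcript that starts 328 bases from Tbx2 on the opposite strand, stood at 5.07 to 6.65 CPM in WT libraries and 5.73 to 6.15 CPM in KO libraries.

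Tbx3 (ENSMUSG00000018604, chromosome 5, 119670669 to 119684724, plus strand), the closest relative of Tbx2, was the least abundant per exon length. It stood at 16.2, 8.90 and 9.14 CPM in WT and at 7.30, 9.31 and 7.88 CPM in KO. WT replicate 1 was far above the other libraries, which overlapped. For Tbx3 the log2 fold change was −0.48 (SE 0.27, adjusted p = 0.362, edgeR), and it was −0.16 without WT replicate 1. The antisense gene Tbx3os1 overlaps 1.7% of its exons and stood at 0.70 to 1.51 CPM over the 6 libraries.

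**Figure D1:**
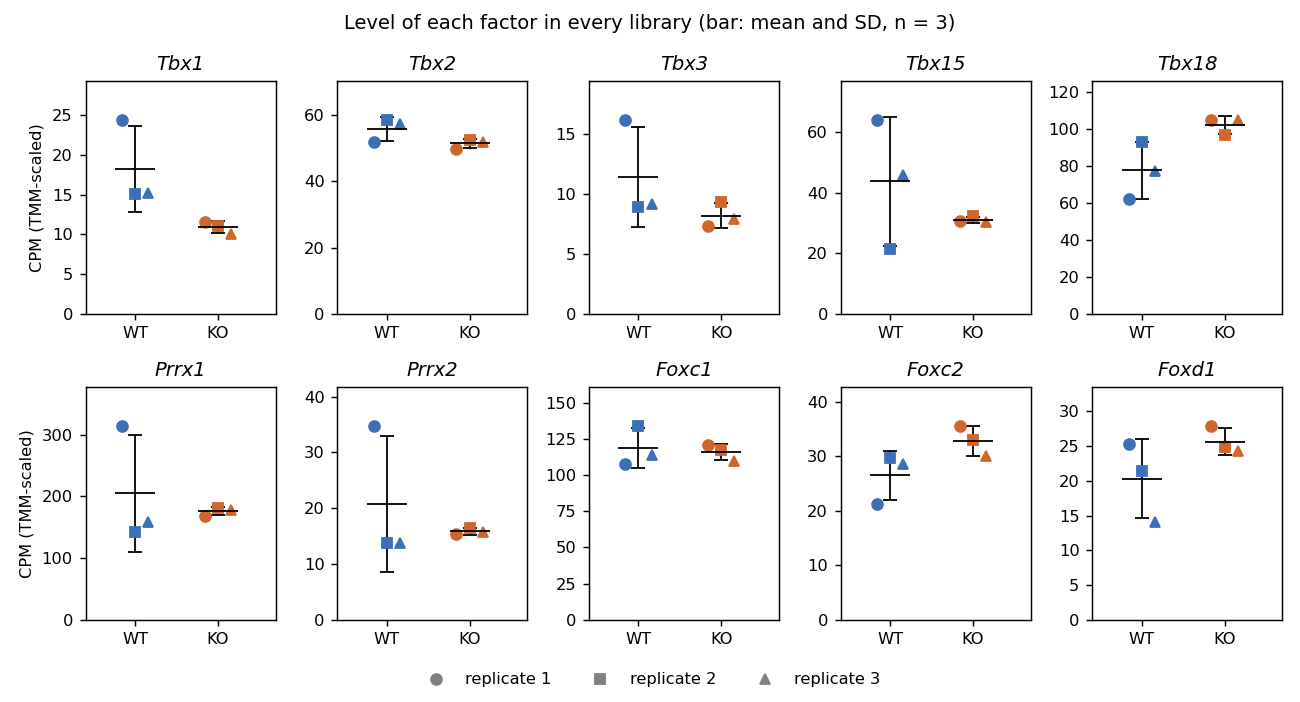
Level of each of the 10 factors in CPM (vertical axes from 0, each panel on its own scale) in the 3 WT and 3 KO libraries, with points for replicates and bars for the mean and SD. The 3 KO points lie close together in each panel, while WT replicate 1 (circle) lies well above the other WT points for Tbx1, Tbx3, Prrx1 and Prrx2 and below them for Tbx18 and Foxc2.

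The paired-related factors depended on 1 library for their direction. Prrx1 (ENSMUSG00000026586, chromosome 1, 163245119 to 163313710, minus strand), the factor with the most counts, stood at 314, 142 and 159 CPM in WT and at 168, 181 and 178 CPM in KO. WT replicate 1 lay above all KO libraries and WT replicates 2 and 3 lay below them. Its fitted log2 fold change was −0.22 (SE 0.29, 95% interval −0.92 to 0.48, adjusted p = 0.708, edgeR). Without WT replicate 1 its sign turned, to 0.21 (adjusted p = 0.137).

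Prrx2 (ENSMUSG00000039476, chromosome 2, 30834972 to 30881251, plus strand) had the same arrangement of libraries. It stood at 34.7, 13.8 and 13.7 CPM in WT and at 15.3, 16.5 and 15.8 CPM in KO. Its fitted log2 change was −0.39 (SE 0.37, adjusted p = 0.595, edgeR) and 0.19 without WT replicate 1 (adjusted p = 0.258). In WT replicate 1, Prrx1 was 2.09 times and Prrx2 2.52 times the mean of WT replicates 2 and 3. The keratin markers were high in that same library, and the smooth muscle and pericyte sum was highest there (1159 CPM). The skeletal muscle sum was larger in WT replicate 3 (10340 CPM) than in WT replicate 1 (6118 CPM), while both factors were lower in WT replicate 3. The part of skin or muscle tissue in these values was not tested.

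Of the 10 factors, Foxc1 had the smallest fitted change. This forkhead factor (ENSMUSG00000050295, chromosome 13, 31806633 to 31812476, plus strand) stood at 107, 134 and 114 CPM in WT and at 120, 117 and 110 CPM in KO, with the KO libraries inside the WT range. For Foxc1 the log2 fold change was −0.032 (SE 0.10, 95% interval −0.28 to 0.21, adjusted p = 0.888, edgeR), and its sign depended on which library was left out. Foxc2 (ENSMUSG00000046714, chromosome 8, 121116171 to 121118895, plus strand) stood at 21.2, 29.7 and 28.5 CPM in WT and at 35.5, 33.0 and 30.1 CPM in KO. All KO libraries lay above all WT libraries, KO replicate 3 by a small margin. For Foxc2 it was 0.31 on the log2 scale (SE 0.15, 95% interval −0.044 to 0.67, adjusted p = 0.303, edgeR), and it was 0.16 without WT replicate 1.

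Foxd1 (ENSMUSG00000078302, chromosome 13, 98354242 to 98359305, plus strand) stood at 25.3, 21.4 and 14.1 CPM in WT and at 27.9, 24.8 and 24.2 CPM in KO. WT replicate 1 reached the KO range, and WT replicate 3 was the lowest library. The fitted log2 fold change was 0.34 (SE 0.21, adjusted p = 0.416, edgeR). It was 0.52 without WT replicate 1 and 0.14 without WT replicate 3.

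**Figure D2:**
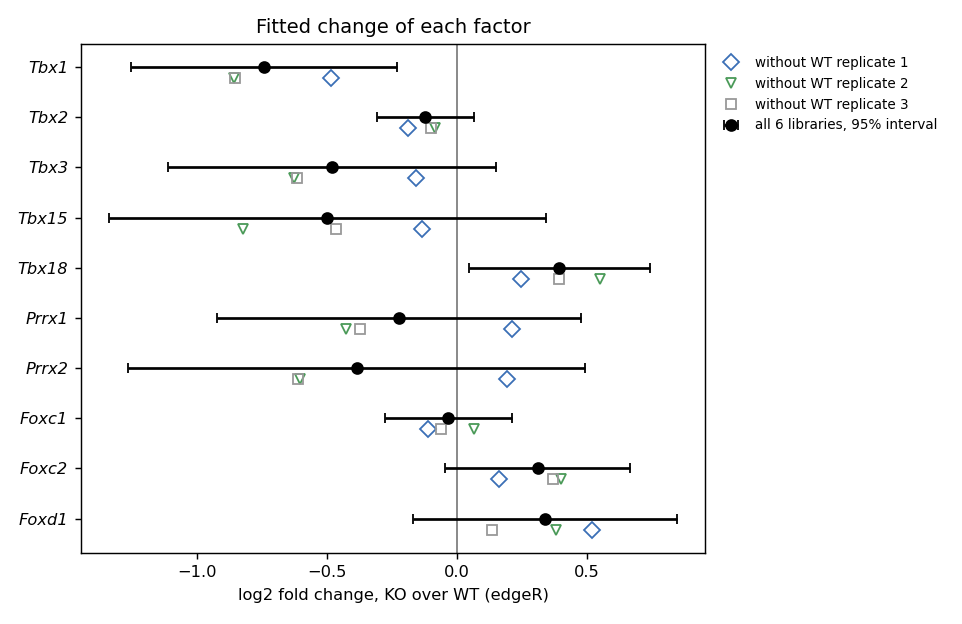
Fitted log2 fold change of each factor, KO over WT (horizontal axis), with all 6 libraries (black points, 95% interval) and without each WT library in turn (open symbols). The intervals of Tbx1 and Tbx18 lie to 1 side of 0, and the values of Prrx1 and Prrx2 cross 0 when WT replicate 1 is left out.

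The spread within WT was larger than that within KO for all 10 factors on the log2 scale, as it was for 81.4% of all genes tested. The coefficient of variation in WT ran from 6.52% (Tbx2) to 58.3% (Prrx2), and in KO from 2.75% (Tbx2) to 12.7% (Tbx3). WT replicate 1 was the highest of the 6 libraries for Tbx1, Tbx3, Tbx15, Prrx1 and Prrx2 (5 of 10, against 28.8% of all genes) and the lowest for Tbx18, Foxc1 and Foxc2 (3 of 10, against 29.6%). Foxd1 and Tbx2 were at neither end. With WT replicate 1 set aside, all KO libraries lay above WT replicates 2 and 3 for Tbx18, Prrx1, Prrx2, Foxc2 and Foxd1 (5 of 10, against 24.2% of all genes). They lay below for Tbx1 and Tbx2 (2 of 10, against 22.8%). In the fit without WT replicate 1, 0 of the 10 factors passed the threshold, while 9.06% of all genes did, and without WT replicate 2 it was again 0 of 10, with 3.78% of all genes. Without WT replicate 1 the 5 with an unadjusted p under 0.05 were Tbx1 and Tbx2, lower in KO, and Tbx18, Prrx1 and Foxd1, higher, against 29.3% of all genes. The median log2 change of the 10 was 0.028 in the fit without WT replicate 1.

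**Figure D3:**
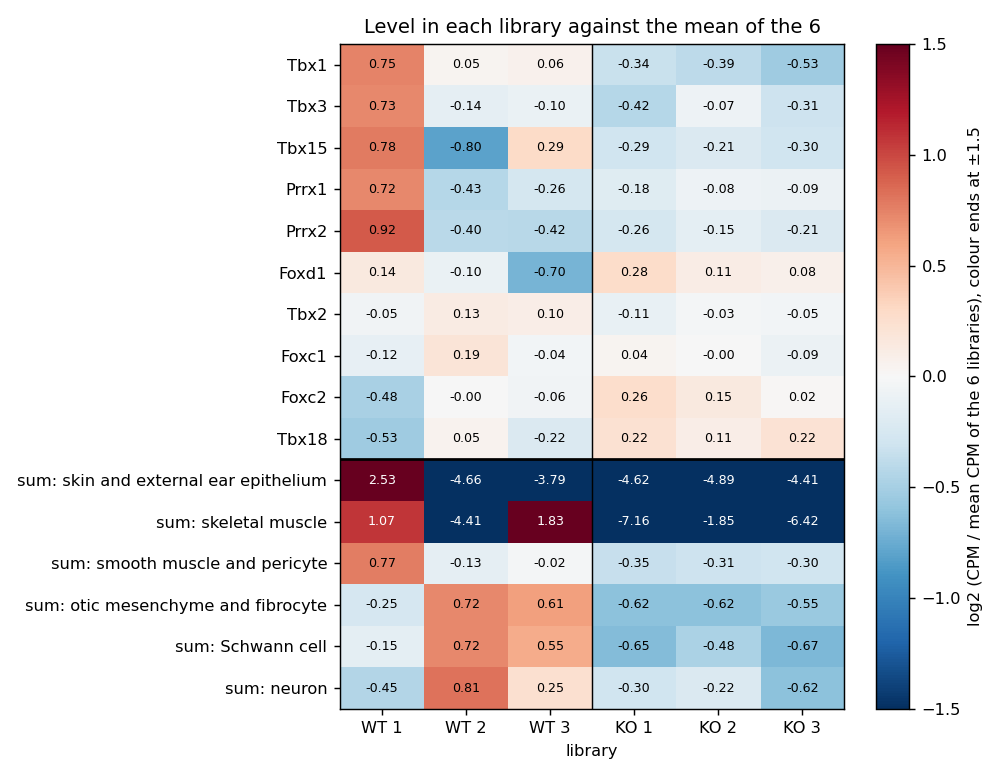
Level of each factor (rows above the line) and summed level of marker lists (rows below it) in each library, as the log2 of CPM over the mean of the 6 libraries, with the value in each cell and colours ending at ±1.5. Tbx1, Tbx3, Tbx15, Prrx1 and Prrx2 are at 0.72 to 0.92 in WT replicate 1, the library where the keratin sum is also highest (2.53).

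Levels can be compared between factors only per exon length. In WT the order by mean CPM per kb of exon was Foxc1 (20.3 ± 2.35, SD, n = 3), Prrx1 (18.5 ± 8.59), Tbx18 (16.4 ± 3.27), Tbx2 (15.4 ± 1.01), Tbx15 (11.7 ± 5.71), Prrx2 (10.6 ± 6.17), Foxc2 (9.72 ± 1.67), Tbx1 (5.18 ± 1.53), Foxd1 (4.00 ± 1.12) and Tbx3 (1.72 ± 0.624). The ranges of neighbours in that order overlapped except between Foxc2 and Tbx1 and between Foxd1 and Tbx3. In KO the order per kb began with Tbx18 (21.6 ± 1.00) and Foxc1 (19.8 ± 0.925), whose ranges overlapped, and continued with Prrx1 (15.9 ± 0.592) and Tbx2 (14.2 ± 0.390). Foxc2 (12.1 ± 1.00) came before Tbx15 (8.27 ± 0.285) and Prrx2 (8.10 ± 0.316) there, and the ranges of the latter pair overlapped. Foxd1 (5.07 ± 0.387), Tbx1 (3.10 ± 0.207) and Tbx3 (1.23 ± 0.156) closed the order. Exon lengths join all annotated isoforms, which lowers the value per kb of Prrx1, with 11066 exon bases over 5 transcripts, more than that of the factors with 1 transcript.

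Ratios between close relatives were taken within each library, where library scaling has no part. For Prrx1 over Prrx2 the log2 ratio of counts per exon kb was 0.68, 0.86 and 1.04 in WT and 0.96, 0.95 and 1.00 in KO (difference 0.11, exact permutation p = 0.4, and 0.5 adjusted). That difference was 0.024 without WT replicate 1 and 0.20 without WT replicate 3. The log2 of CPM over the mean of the 6 libraries ran from −0.43 to 0.72 for Prrx1 and from −0.42 to 0.92 for Prrx2. Over the same libraries the log2 ratio of the pair spanned 0.36. For Foxc1 over Foxc2 it was 1.24, 1.07 and 0.90 in WT and 0.66, 0.73 and 0.77 in KO. The KO ratios all lay below the WT ratios, a difference of −0.35 (exact two-sided permutation p = 0.1, the smallest that 3 against 3 allows, and 0.4 adjusted over the 4 pairs). For Tbx2 over Tbx3 it was 2.55, 3.59 and 3.52 in WT and 3.64, 3.36 and 3.59 in KO, with WT replicate 1 alone below the rest (difference 0.31, exact permutation p = 0.5, and 0.5 adjusted). For Tbx15 over Tbx18 it was 0.37, −1.78 and −0.42 in WT and −1.45, −1.25 and −1.46 in KO (difference −0.78, exact permutation p = 0.4, and 0.5 adjusted). In WT replicate 1 there was more Tbx15 than Tbx18 per kb, and in each of the other 5 libraries less.

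**Figure D4:**
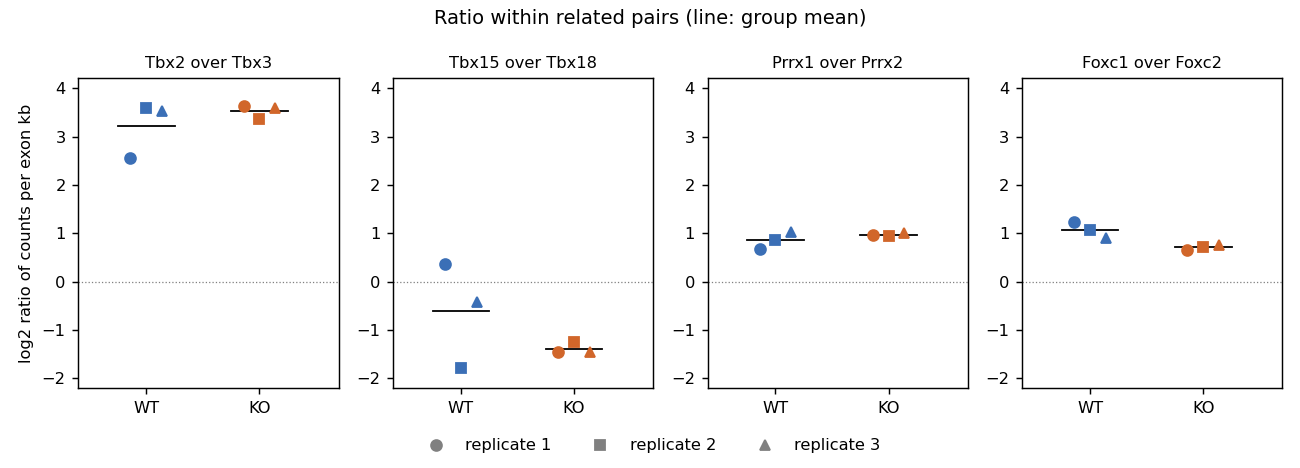
Log2 ratio of counts per exon kb within each library for 4 pairs of related factors (shared vertical axis), with points for replicates and lines for group means. The 3 KO ratios of Foxc1 over Foxc2 (0.66 to 0.77) lie below the WT ratios (0.90 to 1.24), and Tbx15 over Tbx18 spans −1.78 to 0.37 within WT.

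Genes within 200 kb of a factor numbered 105, of which 41 were tested and 0 called by edgeR (7 at an unadjusted p under 0.05, a share no larger than the 19.6% of all genes tested). Those 7 are given as values and are not a result about the factors. D030062O11Rik is described above. 1700018A04Rik, 180841 bases from Foxc1, stood at 0.68 to 1.02 CPM in WT and at 0.17 to 0.38 CPM in KO, with no overlap. Its mean was 0.55 CPM over the 6 libraries, with 4 to 20 counts in each (log2 fold change −1.53, SE 0.38, adjusted p = 0.13, edgeR). Next to Foxc1, the fucose synthesis enzyme gene Gmds stood at 17.3 to 19.1 CPM in WT and at 23.6 to 24.7 CPM in KO, with no overlap (log2 fold change 0.42, SE 0.10, adjusted p = 0.114, edgeR). The forkhead gene Foxf2, 175230 bases from Foxc1, stood at 8.48, 12.5 and 13.8 CPM in WT and at 6.69, 8.70 and 6.80 CPM in KO (−0.65, adjusted p = 0.191). The fitted changes of Gmds and Foxf2 had opposite signs on either side of Foxc1, and neither passed the threshold. Wars2, which encodes a mitochondrial tRNA synthetase and lies 1195 bases from Tbx15, stood at 7.03 to 9.68 CPM in WT libraries and 10.6 to 12.1 CPM in KO libraries, with no overlap, while Tbx15 itself overlapped. Tor1b, 71708 bases from Prrx2, averaged 48.0 ± 1.83 CPM for WT and 57.5 ± 0.704 CPM for KO (SD, n = 3), and Arhgef28, 147803 bases from Foxd1, 23.3 ± 3.07 and 17.5 ± 2.16 CPM.

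The remaining members of the families were compared from lists that were chosen with earlier results of these data known. Of 12 other T-box genes 4 were tested, and 0 were called by edgeR (0 also at an unadjusted p under 0.05, and 0 by DESeq2). The most abundant were Mga, a large repressor with a T-box, at 58.3 ± 7.06 CPM across WT and 66.3 ± 5.69 CPM across KO, and Eomes at 2.14 ± 0.351 and 2.41 ± 1.06 CPM (SD, n = 3). Of 25 other paired-type homeobox genes 10 were tested and 0 called by edgeR, with 4 lower in KO at an unadjusted p under 0.05 (against 10.9% of all genes) and a median log2 change of −0.88. Alx4 and Shox2 were the most abundant. Alx4, a skull and limb factor, stood at 7.97 ± 4.98 CPM across WT and 8.65 ± 1.25 CPM across KO. Shox2 stood at 4.41, 4.47 and 3.50 CPM in WT and at 1.61, 1.61 and 1.19 CPM in KO, without overlap. Its fitted log2 change was −1.48 (SE 0.22, adjusted p = 0.0558, edgeR). DESeq2 called it, the only one of the list, with an adjusted p of 1.0e-04. Unlike Prrx1 and Prrx2, Shox2 had nearly the same level in WT replicates 1 and 2. WT replicate 1 was the highest library for 6 of the 10 genes tested, against 28.8% of all genes.

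Of 41 other forkhead genes 26 were tested and 0 called by edgeR (1 higher and 6 lower at an unadjusted p under 0.05, against 8.71% and 10.9% of all genes). DESeq2 called 2 of the 26, against 8.14% of all genes: Foxo6 and Foxj1, a factor of motile cilia, both lower in KO. Foxo6 stood at 5.75 ± 2.35 CPM across WT and 2.14 ± 0.183 CPM across KO, and Foxj1 at 5.51 ± 0.406 and 3.30 ± 0.499 CPM. The most abundant, Foxo3 and Foxn3, stood at 96.6 ± 19.7 and 106 ± 23.8 CPM in WT and at 113 ± 8.05 and 94.7 ± 2.42 CPM in KO. The median log2 change of the list was −0.094.

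Of 34 other mesenchyme factors 30 were tested and 0 called by edgeR. At an unadjusted p under 0.05 there were 4 higher and 12 lower in KO, against 8.71% and 10.9% of all genes, and the median was −0.32. DESeq2 called 1 higher, Zic4, and 6 lower, among them Meox2 and Osr2 (7 of 30, against 8.14% of all genes). WT replicate 1 was the highest library for 18 of the 30, against the 28.8% of all genes given above. Osr2, a palate and limb factor, stood at 25.4 CPM in WT replicate 1, at 1.25 and 3.70 CPM in WT replicates 2 and 3 and at 0.43 to 0.81 CPM in KO. Meox2, a factor of somites and limb muscle, stood at 18.5, 4.63 and 11.7 CPM in WT and at 2.52, 3.13 and 1.89 CPM in KO, lowest within WT in replicate 2, which had the smallest muscle sum in WT. KO replicate 2 had less Meox2 than WT replicate 2 with a larger muscle sum. WT replicate 3 had less than WT replicate 1, also with a larger muscle sum. The part of skin and muscle tissue in the values of Osr2 and Meox2 was not tested. The most abundant genes of the list were Zeb2 (134 ± 16.5 CPM across WT and 162 ± 14.7 CPM across KO) and Ebf1 (86.4 ± 6.78 and 73.8 ± 3.55 CPM).

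Among 17 genes that the literature links to one of the factors, 15 were tested. This list was also chosen with earlier results of these data known, so its shares beside those of all genes are not evidence of enrichment. The matrix glycoprotein tenascin C, Tnc, which Prrx1 is reported to regulate, was the 1 gene called of 15, against 0.396% of all genes. It stood at 715, 926 and 821 CPM in WT and at 1786, 1755 and 1994 CPM in KO (log2 fold change 1.17, SE 0.12, adjusted p = 0.0387, edgeR). The Prrx1 levels of the same libraries overlapped between the groups, and the part of Prrx1 in the Tnc level was not tested. At an unadjusted p under 0.05 there were 5 higher and 3 lower in this list, against 8.71% and 10.9% of all genes. The Tnc call was lost without any 1 of 4 libraries, as was every other call, since those 4 fits called 0 of all genes tested. The adjusted p of Tnc there was 0.136 without WT replicate 3 and 0.357, 0.271 and 0.33 without KO replicates 1 to 3 (edgeR). The log2 changes were 1.11 to 1.21. With Xist as a term the adjusted p was 0.145 and with the replicate block 0.21 (edgeR), in fits that called 0 and 1 of all genes. DESeq2 called 4 genes of the list (against 8.14% of all genes), Tnc, Itgb3 and Gja1 higher and Fgf10 lower. Fgf10, a growth factor of the otic vesicle, stood at 16.5 ± 3.11 CPM across WT and 8.92 ± 0.990 CPM across KO (−0.89, adjusted p = 0.091, edgeR). Of the 14 corepressors and partner proteins 14 were tested and 0 called by edgeR (3 lower at an unadjusted p under 0.05, against 10.9% of all genes), with a median of −0.044. Tle5 stood at 225 ± 24.0 CPM across WT and 181 ± 11.1 CPM across KO, and Ncor1 at 143 ± 12.1 and 158 ± 17.6 CPM. DESeq2 called Tle4 lower in KO, at 32.6 ± 2.70 and 24.5 ± 1.74 CPM.

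**Figure D5:**
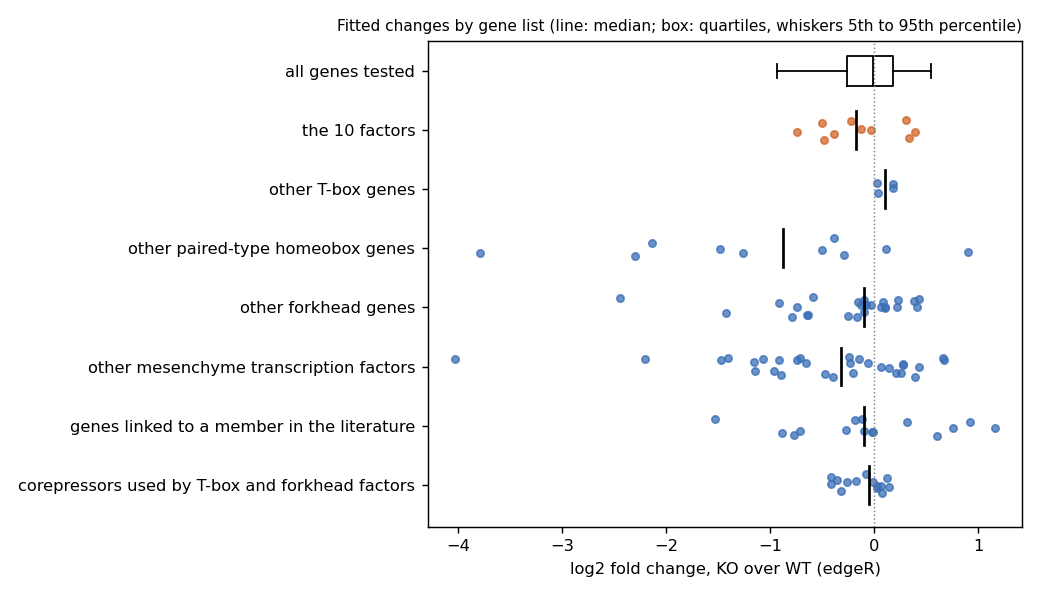
Fitted log2 fold changes, KO over WT (horizontal axis), of the tested genes of each list (points) with the list median (line), and of all genes tested (box with quartiles, whiskers from the 5th to the 95th percentile). The 10 factors run from −0.74 to 0.40, and the lowest median among the lists plotted, −0.88, is that of the other paired-type homeobox genes.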

How the data were processed

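Bulk RNA of mouse inner ear was sequenced in 3 WT and 3 Pou3f4 KO libraries, extracted with TRIzol and prepared with a TruSeq Stranded mRNA kit, per the labels' protocols. The authors deposited raw read counts per gene, without normalisation. Per the submitters' processing notes, HISAT2, HTSeq, Trimmomatic and Cufflinks were used with the build mm10. Their roles and versions, the annotation release and the use of strand in counting are not given there.

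Counts were filtered with filterByExpr (minimum count 10), scaled by TMM and tested by quasi-likelihood (glmQLFTest, edgeR 4.0.16, limma 3.58.1, R 4.3.3), with genotype alone in the design and Benjamini-Hochberg adjustment over 19687 genes at 0.05. CPM values use scaled library sizes. A count of 0 allows up to 3 reads, or 0.13 to 0.167 CPM, for counting error only. Exon lengths and overlaps came from GENCODE M21, which held 55141 of 55401 identifiers. Pair ratios used a prior of 0.5 counts. The 10 factors, the gene lists and the alternatives were chosen with earlier results of these data known. Genes named were the 10 factors, list members past the threshold or else the 2 with the highest mean CPM, and Pou3f4. The rule also admitted 37 tested neighbours with a mean of at least 1 CPM, of which those with an unadjusted p under 0.05 or next to Tbx2 were named. That choice, Tbx3os1, 1700018A04Rik and genes called by DESeq2 alone were picked after their values were seen. The alternatives tried were scaling by RLE or upper quartile, no low-count filter, at least 1 CPM in 3 libraries, DESeq2 1.42.0, limma-voom, a block for replicate number, omission of mitochondrial, haemoglobin and muscle genes, the presence of Xist as a term, and leaving out each library.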

Additional observations from a re-analysis of the deposited data

How the results depend on the processing

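Over 10 factors and 15 alternatives, 145 of 150 fitted changes kept their direction and their side of the threshold. Staying on that side says little where few genes were called at all. The replicate block called 1 gene, and the fits with Xist as a term, without WT replicate 3 and without each KO library called 0. The sign of Prrx1 and Prrx2 turned without WT replicate 1, and over libraries left out their changes ran from −0.42 to 0.21 and from −0.61 to 0.19. That of Foxc1 turned without WT replicate 2 or KO replicate 3 (0.0073), with a range of −0.11 to 0.067. DESeq2 called Tbx1 (1 of the factors, adjusted p = 0.0295), and every other alternative called 0. The pair difference of Tbx2 over Tbx3 was −0.022 without WT replicate 1 and ran from −0.022 to 0.50 over libraries left out, and that of Tbx15 over Tbx18 from −1.36 to −0.28.

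The number of genes called was 78, and it was 1603 with DESeq2, 1 with the replicate block, 0 with Xist as a term, and between 0 and 1814 with 1 library left out. Same-numbered libraries had no positive correlation of their deviations (−0.133, −0.313 and −0.194). These values do not settle whether the libraries were paired by design. With the replicate block Tbx1 stood at −0.71 and Tbx18 at 0.41. In the lists, DESeq2 called 1 paired-type, 2 forkhead, 7 mesenchyme, 4 literature-linked and 1 corepressor gene. Leaving out 1 library gave 0 to 2, 0 to 3, 0 to 4 and 0 to 3 genes in the first 4 of these. The literature-linked count was 0 with the replicate block or with Xist as a term. The cause of these shifts was not tested. With 3 libraries a group, the WT spread limits the precision of Tbx15, Prrx1 and Prrx2 most.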
